A study of Mus musculus with 9 samples.

Results

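ATP-binding cassette (ABC) genes were selected in mouse AKP tumour organoids by name alone, as the rows of the count table whose Ensembl ID has, in GENCODE M21, a protein-coding symbol that begins with Abca, Abcb, Abcc, Abcd, Abce, Abcf or Abcg and continues with a digit. This gave 50 genes of the 21253 in the table: 16 Abca, 10 Abcb, 10 Abcc, 4 Abcd, 1 Abce, 3 Abcf and 6 Abcg genes. No measured value entered the choice. Of the 50, 36 passed the filter on low counts and were tested, and 14 had too few counts to be tested. Cftr, Tap1 and Tap2 encode proteins of the same superfamily under other symbols and are not among the 50.

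Organoids are small epithelial structures grown in a gel, and AKP is a usual abbreviation for intestinal tumour organoids altered in several cancer genes, Apc among them; the labels give no allele beyond a hairpin against Apc, a brake on Wnt signalling. All 9 samples carry that doxycycline-dependent hairpin: 3 control samples were kept in doxycycline, which holds Apc off, 3 had been without doxycycline for 2 days and 3 for 7 days, so that Apc was restored. Doxycycline removal, Apc restoration and time in culture cannot be told apart, and the sources used here do not give the tissue of origin. By the labels the replicates are technical ones, and p-values cover no more than the spread among these libraries.

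ABC proteins bind and hydrolyse ATP, and most use it to move a substrate across a membrane. In the absorptive cells of the intestine, pumps of the apical membrane return drugs, conjugates and plant sterols to the lumen, and pumps of the basolateral membrane send conjugates towards the blood. Other members sit in peroxisomes, mitochondria and lysosomes, and the Abce and Abcf proteins have no membrane domain and act on ribosomes.

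The libraries held 24143589 to 32277040 counts each. Apc, the gene that was silenced, had 6.8, 6.83 and 8.84 CPM (counts per 1000000, with library sizes scaled by TMM factors) in control, 31.8, 38.1 and 24.8 CPM after 2 days and 67.9, 69.9 and 92.9 CPM at 7 days, so each group stood above the one before it without overlap. Of 10 epithelial markers, 9 were tested, and their list summed to 27200 to 37100 CPM at 7 days, against 9850 to 13000 CPM in control. The 12 absorptive enterocyte markers summed to 16300 to 17800 CPM at 7 days and 443 to 512 CPM after 2 days, against 417 to 510 CPM in control, and 12 of 12 were called higher at 7 days. Sums over fibroblast markers stayed at or below 1.16 CPM in every library and over endothelial markers at or below 2.93 CPM, with Lum and Emcn at 0. Leukocyte markers summed to 23.0 to 28.1 CPM at 7 days and 20.9 to 21.3 CPM after 2 days, against 9.34 to 11.1 CPM in control, and hepatocyte markers to 33.8 to 36.1 CPM at 7 days, against 0.355 to 0.657 CPM in control, most of it Ttr at 30.2 CPM with Alb at 0.0122 CPM at 7 days. Among intestinal epithelial factors, Cdx2 averaged 165 CPM at 7 days, against 171 CPM in control, and Cdx1 was near 0, at 0.0655 CPM, against 0 CPM. In bulk RNA, a change in the share of absorptive cells and a change of RNA per cell cannot be told apart, and this touches each result that follows.

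Promoter sequences are given where the results turn on a shared start, on the largest change and on a family member that was all but silent. Sequences are from RefSeq on GRCm38.p6. The Abcc2 and Abca1 runs end before the GENCODE first exon, and the Abcg5-Abcg8 run lies between RefSeq starts. The first run is the whole stretch between the RefSeq starts of Abcg5, which is read to the left, and Abcg8, which is read to the right, on the plus strand at chr17:84683012-84683120. The second is the stretch before the GENCODE start of Abcc2 on the plus strand at chr19:43782058-43782191. The third is the stretch before the start of Abca1 on the minus strand at chr4:53159896-53160145, with capitals marking first an E-box (CACGTG) and then a match to the LXR motif of a pair of GGTNA repeats set 5 bases apart.
Abcg5-Abcg8: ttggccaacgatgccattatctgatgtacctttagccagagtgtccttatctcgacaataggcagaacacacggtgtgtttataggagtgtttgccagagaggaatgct
Abcc2: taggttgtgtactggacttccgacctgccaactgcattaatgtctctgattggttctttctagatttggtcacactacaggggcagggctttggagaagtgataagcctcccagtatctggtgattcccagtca
Abca1: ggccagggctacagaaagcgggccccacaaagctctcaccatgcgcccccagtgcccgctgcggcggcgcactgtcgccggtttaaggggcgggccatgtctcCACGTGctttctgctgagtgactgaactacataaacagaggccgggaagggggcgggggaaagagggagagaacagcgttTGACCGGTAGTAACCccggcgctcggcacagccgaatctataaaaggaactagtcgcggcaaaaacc
The Abcg5-Abcg8 run is 109 bases long with 45.9% G and C, the Abcc2 run 134 bases with 47.8%, and the Abca1 run 250 bases with 61.6%. The first and second held no match to any of the 5 motifs searched. RefSeq also lists an Abcg8 start 6819 bases away, inside Abcg5. The GENCODE start of Abcg8 is that distant one, so the Abcg5-Abcg8 run lies inside the GENCODE span of Abcg8.

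At 7 days against control, 28 of the 36 tested ABC genes were higher, 4 were lower and 4 were not called. Among all 12535 genes tested, 82.3% were called, 40.5% higher and 41.8% lower; among the ABC genes 88.9% were called, 77.8% higher and 11.1% lower. The share called in either direction was close to the background, and the directions were less even than over all genes. The median log2 fold change was 1.12 over the 36 ABC genes and -0.03 over all genes tested. More than 2-fold changes were 20 upward and 2 downward. Calls are at an adjusted p under 0.05 by edgeR's quasi-likelihood test with Benjamini-Hochberg adjustment over all genes, and 31 of the 32 called genes had no overlap between the groups' libraries. That was 96.9% of the called ABC genes, against 96.7% of all called genes, so the lack of overlap says nothing of the family.

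With libraries scaled by total counts alone, the median of all genes moved by -0.40, and 30 ABC genes were called, 23 higher and 7 lower, against 28 higher and 4 lower with TMM factors. The same change moved the calls over all genes to 3675 higher and 6876 lower, against 5080 higher and 5237 lower. Reported ABC genes whose sign or call at 7 days against control turned with that scale are given with both results.

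At 2 days against control, 11 of the 36 were higher, 3 were lower and 22 were not called. That was 38.9% of the tested ABC genes, with 30.6% higher and 8.33% lower, and the background over all genes was 23.7% called, 13.1% higher and 10.6% lower. The median log2 fold change was 0.08 over the ABC genes and -0.00 over all genes, with 6 genes more than 2-fold higher and 0 more than 2-fold lower. Between 7 days and 2 days, 28 were higher and 4 lower (21 and 7 with total counts as the scale), against a background of 79.1% called, 39.2% higher and 39.9% lower. Both times share the control libraries, so their values are given side by side and their likeness is no separate result. Of the 11 that were higher at 2 days, 10 were higher again at 7 days than at 2 days, and Abca12 was the other.

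**Figure D1:**
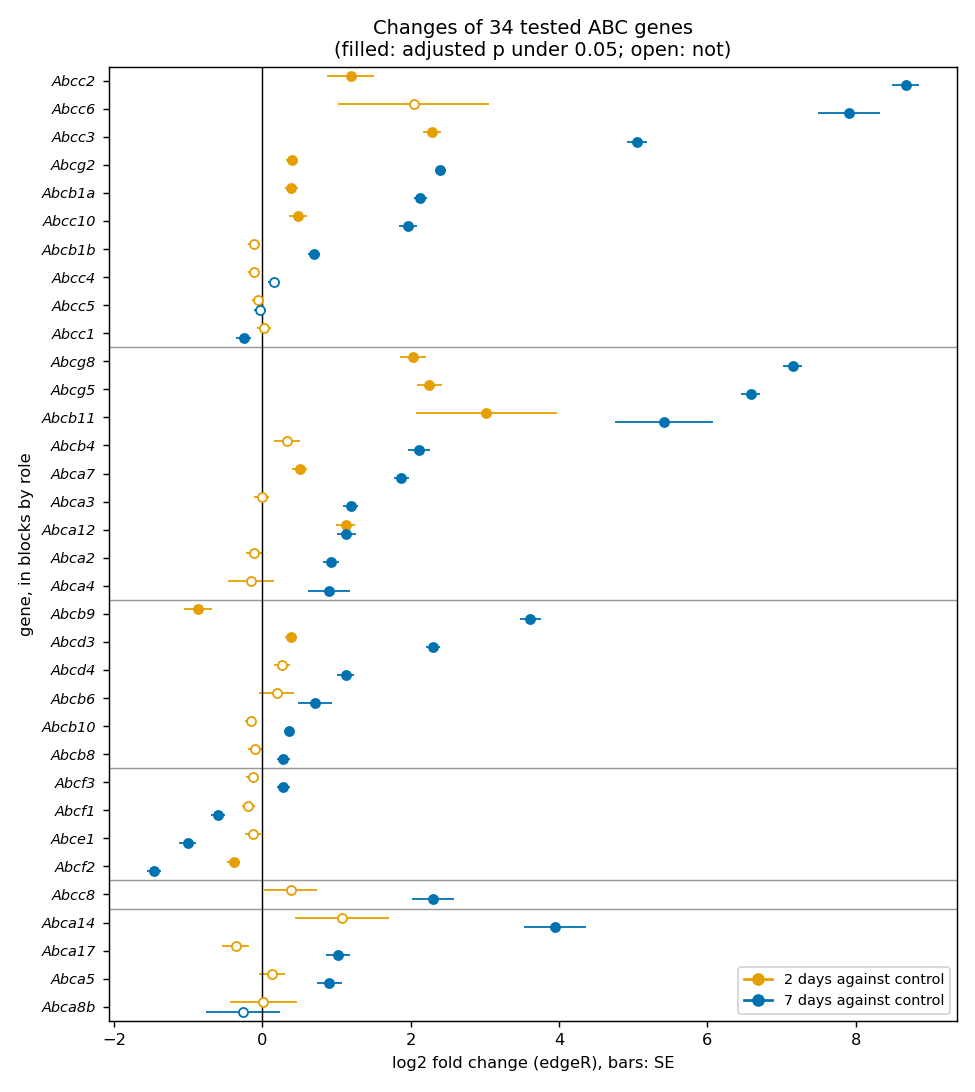
log2 fold changes (x axis) of 34 tested ABC genes against control at 2 days and 7 days, in blocks by role from top to bottom: drug and conjugate export, sterol and phospholipid export, mitochondria, lysosome and peroxisome, no membrane domains, K-ATP subunits, and the Abca5 and Abca14 clusters. Points are edgeR estimates, bars their SE, and filled points an adjusted p under 0.05; nearly all 7-day points lie right of 0, and the block without membrane domains lies mostly left of it.

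Genes of drug and conjugate export had 10 of 13 members tested, and at 7 days 7 were higher, 1 was lower and 2 were not called, with a median log2 fold change of 2.04. Abcc2, Abcc3, Abcg2 and Abcb1a, the main efflux pumps of the absorptive cell surface, were all among the 7. At 2 days 5 of the 10 were higher and none was lower, with a median of 0.40, against 13.1% and 10.6% of all genes tested.

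Abcc2 (ENSMUSG00000025194, chr19:43782192-43840740, plus strand) encodes an apical pump for glutathione and glucuronide conjugates. It had 143, 132 and 144 CPM at 7 days, against 0.309, 0.23 and 0.497 CPM in control. The 7-day libraries lay far above every control library, a log2 fold change of 8.67 ± 0.18 (SE; edgeR adjusted p = 2.7e-15), the largest among the tested ABC genes. At 2 days it had 0.704, 1.11 and 0.552 CPM, a log2 fold change of 1.19 ± 0.32 (edgeR adjusted p = 0.014) that rested on 73 counts at 2 days against 30 in control. All 3 libraries at 2 days lay above the control libraries, but leaving out control replicate 2 (edgeR adjusted p = 0.092) or 2 days replicate 2 (edgeR adjusted p = 0.064) ended the 2-day call.

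Abcc3 (ENSMUSG00000020865, chr11:94343295-94392997, minus strand) encodes a basolateral pump for glucuronides and bile salts. It had 20.6, 19.1 and 16 CPM in control, 87.1, 99.6 and 85.0 CPM after 2 days and 692, 616 and 543 CPM at 7 days. The groups formed 3 separate steps: the log2 fold change was 2.29 ± 0.12 at 2 days (edgeR adjusted p = 1.9e-09), 5.05 ± 0.13 at 7 days (edgeR adjusted p = 2e-14) and 2.77 ± 0.11 between 7 days and 2 days (edgeR adjusted p = 7.9e-12). On the log2 scale, 45.2% of its 7-day change against control was present at 2 days, compared with 13.7% for Abcc2.

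Abcc6 (ENSMUSG00000030834, chr7:45967555-46030302, minus strand) encodes a transporter best known from liver and kidney, and its loss in humans causes soft tissue calcification. It had 6.58, 6.65 and 6.12 CPM at 7 days, against 0, 0.0574 and 0 CPM in control. Control held 2 counts in all and 7 days 496, a ratio of CPM of 286 with a 95% counting interval of 78.8 to 2370, and the difference was called (edgeR adjusted p = 1.2e-10). At 2 days it had 0.122, 0 and 0.184 CPM, and no difference was called (edgeR adjusted p = 0.17); it was called without 2 days replicate 2, the library at 0 (edgeR adjusted p = 0.045).

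Abcg2 (ENSMUSG00000029802, chr6:58584523-58695676, plus strand), the apical breast cancer resistance protein, had 84.6, 88.2 and 83.1 CPM at 7 days, against 16.7, 16.2 and 15.7 CPM in control. Its libraries agreed closely within each group, and the log2 fold change was 2.40 ± 0.08 (edgeR adjusted p = 8.8e-13). At 2 days it had 21.6, 19.5 and 22.9 CPM, all above control, a log2 fold change of 0.40 ± 0.08 (edgeR adjusted p = 0.0026). Abcc10 (ENSMUSG00000032842, chr17:46303221-46328352, minus strand), a broad drug pump, had 17.0, 16.5 and 14.4 CPM at 7 days, against 4.09, 4.25 and 3.94 CPM in control. Its log2 fold change was 1.96 ± 0.12 at 7 days (edgeR adjusted p = 4.4e-10) and 0.48 ± 0.12 at 2 days (edgeR adjusted p = 0.011), with 5.05, 6.40 and 5.71 CPM in the 2-day libraries. No library of either time overlapped with control.

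Mice carry a pair of P-glycoprotein genes, Abcb1a (ENSMUSG00000040584, chr5:8660077-8748575, plus strand) and Abcb1b (ENSMUSG00000028970, chr5:8798147-8866315, plus strand), 49.6 kb apart on the same strand. Abcb1a had 77.8, 84.2 and 92.9 CPM in control, 109, 115 and 110 CPM after 2 days and 344, 357 and 413 CPM at 7 days. Every step was free of overlap, with a log2 fold change of 0.39 ± 0.09 at 2 days (edgeR adjusted p = 0.0048) and 2.13 ± 0.09 at 7 days (edgeR adjusted p = 1e-11). Abcb1b had 55.8, 56.9 and 61.8 CPM in control, 51.4, 55.4 and 54.6 CPM after 2 days and 87.4, 90.7 and 103 CPM at 7 days. The 2-day libraries lay just below control without a call (log2 fold change -0.11 ± 0.08, edgeR adjusted p = 0.36), and the 7-day libraries lay above both (0.69 ± 0.08, edgeR adjusted p = 1.3e-06). Per kilobase of exon, Abcb1a stood at 67.8 CPM and Abcb1b at 11.7 CPM at 7 days, and at 15.5 and 7.28 CPM in control. The pair are close paralogues, so how the counting split reads that match both is uncertain, and the difference between their fold changes was not tested.

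Abcc1, Abcc4 and Abcc5, pumps for conjugates, cyclic nucleotides and other organic anions that many cell types express, moved little. Abcc5 averaged 209 ± 11.5 CPM at 7 days and 204 ± 19.5 CPM after 2 days, against 214 ± 5.42 CPM in control (SD, n = 3 each), and was called in none of the 3 comparisons by edgeR; with total counts as the scale it was lower at 7 days (log2 fold change -0.44, edgeR adjusted p = 8.1e-05). Abcc4 averaged 66.7 ± 0.782 CPM at 7 days, against 60.3 ± 1.8 CPM in control (edgeR adjusted p = 0.088), and was higher at 7 days than at 2 days, where it averaged 55.4 ± 4.49 CPM (edgeR adjusted p = 0.0046); with total counts as the scale both of these differences turned negative, and the first was called lower (edgeR adjusted p = 0.008), while with DESeq2 size factors it was called higher (edgeR adjusted p = 0.033). Abcc1 was lower at 7 days, with 82.0, 78.0 and 73.4 CPM, against 99.8, 92.0 and 85.1 CPM in control, a log2 fold change of -0.25 ± 0.10 (edgeR adjusted p = 0.031). That call was lost without control replicate 1, control replicate 2, 7 days replicate 2 or 7 days replicate 3, with edgeR adjusted p between 0.064 and 0.11, and with DESeq2 (adjusted p = 0.067).

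**Figure D2:**
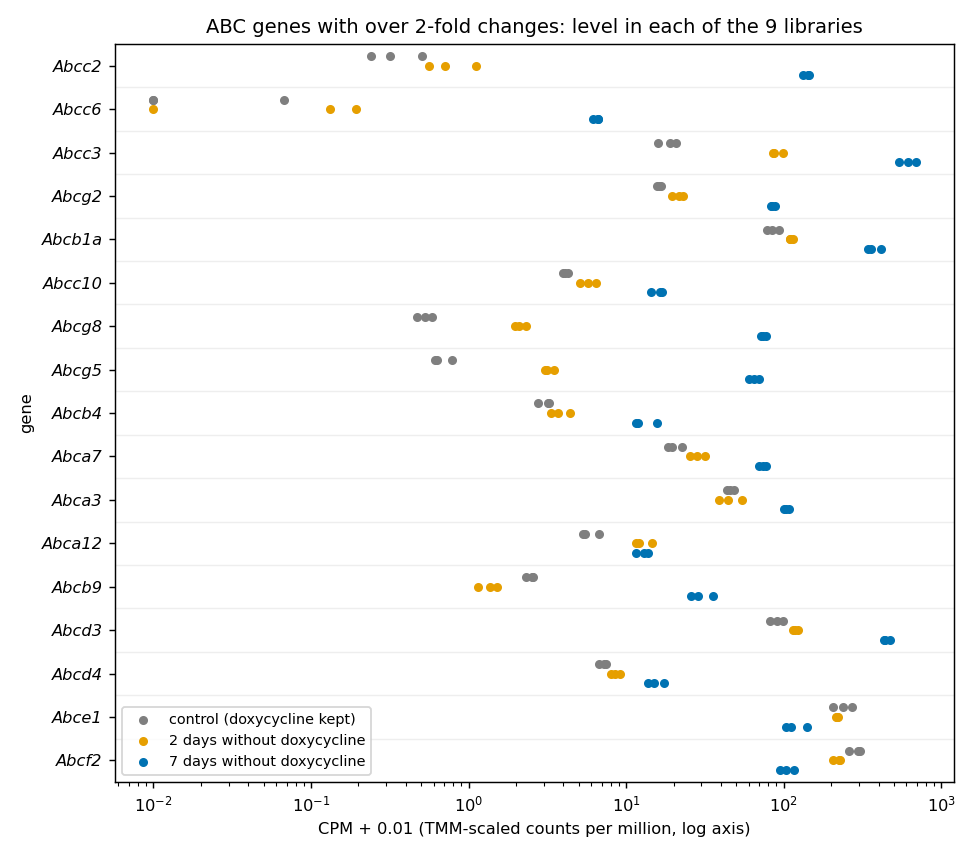
CPM + 0.01 (x axis, log scale) in each of the 9 libraries for 17 ABC genes with a called change of at least 2-fold at either time and at least 5 CPM in the higher group. Each point is 1 library and colours give control, 2 days and 7 days; Abcc2, Abcc6, Abcg8 and Abcg5 show the widest gaps between 7 days and control, Abca12 has its 2-day and 7-day libraries together, and Abcb9 has its 2-day libraries below control.

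Genes of sterol and phospholipid export had 9 of 13 members tested, and all 9 were higher at 7 days, with a median log2 fold change of 1.87. Of all genes tested, 82.3% were called at 7 days and 40.5% were higher. At 2 days 5 of the 9 were higher and 4 were not called, with a median of 0.50, and 13.1% of all genes tested were higher.

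Abcg5 (ENSMUSG00000040505, chr17:84658234-84683011, minus strand) and Abcg8 (ENSMUSG00000024254, chr17:84676302-84700333, plus strand) encode the partner subunits of the apical pump that returns plant sterols and cholesterol to the gut lumen. By the RefSeq starts used above, they are read in opposite directions from the 109 bases shown. Abcg5 had 0.618, 0.775 and 0.604 CPM in control, 3.03, 3.46 and 3.16 CPM after 2 days and 60.1, 69.3 and 64.5 CPM at 7 days. Abcg8 had 0.579, 0.517 and 0.462 CPM in control, 2.08, 1.97 and 2.30 CPM after 2 days and 77.1, 73.9 and 71.9 CPM at 7 days. Both climbed in the same 2 steps with no overlap between groups. For Abcg5 the log2 fold change was 2.25 ± 0.17 at 2 days (edgeR adjusted p = 1.2e-07) and 6.58 ± 0.13 at 7 days (edgeR adjusted p = 2e-15). For Abcg8 it was 2.03 ± 0.17 at 2 days (edgeR adjusted p = 4.9e-07) and 7.15 ± 0.13 at 7 days (edgeR adjusted p = 5.7e-16). Per kilobase of exon the partners stood at 23.8 CPM for Abcg5 and 19.8 CPM for Abcg8 at 7 days. The annotated exons of the pair share 82 bases on opposite strands, which is 3.02% of the exon bases of Abcg5 and 2.19% of those of Abcg8, and the library kit does not mark the strand.

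Bile salt and phosphatidylcholine pumps of the liver were also read at low levels. Abcb11, the bile salt export pump of hepatocytes, had 0.952, 0.751 and 1.69 CPM at 7 days and 0.245, 0.277 and 0.123 CPM after 2 days, against 0, 0 and 0.071 CPM in control. With 2 counts in control, the ratio of CPM was 50.8 at 7 days (95% counting interval 13.6 to 426, 88 counts; edgeR adjusted p = 1.8e-06) and 9.44 at 2 days (2.29 to 83.3, 20 counts; edgeR adjusted p = 0.032). The 2-day call was lost without control replicate 1 or 2, or 2 days replicate 1 or 2, with edgeR adjusted p between 0.086 and 0.13. Abcb4 (ENSMUSG00000042476, chr5:8893717-8959231, plus strand), which flips phosphatidylcholine and lies 27.4 kb from Abcb1b, had 11.6, 11.8 and 15.7 CPM at 7 days, against 3.17, 2.73 and 3.23 CPM in control. All 7-day libraries were more than 3 times the control libraries, a log2 fold change of 2.11 ± 0.15 (edgeR adjusted p = 4.1e-09), and at 2 days, with 3.34, 3.67 and 4.42 CPM, it was not called (edgeR adjusted p = 0.18).

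Abca7 (ENSMUSG00000035722, chr10:79996494-80015572, plus strand), a phospholipid exporter, had 74.3, 77.2 and 69.5 CPM at 7 days and 28.1, 31.7 and 25.4 CPM after 2 days, against 22.5, 19.6 and 18.3 CPM in control. The libraries rose without overlap, with a log2 fold change of 1.87 ± 0.10 at 7 days (edgeR adjusted p = 1.3e-10) and 0.50 ± 0.10 at 2 days (edgeR adjusted p = 0.0021). Abca3 (ENSMUSG00000024130, chr17:24351950-24410201, plus strand), the surfactant lipid pump of lung lamellar bodies, had 108, 104 and 101 CPM at 7 days, against 48.1, 45.5 and 43.8 CPM in control. Its change came after 2 days: the 2-day libraries, at 44.1, 54.0 and 38.9 CPM, spread around control (edgeR adjusted p = 0.98), and the log2 fold change at 7 days was 1.19 ± 0.10 (edgeR adjusted p = 2.9e-08). Abca2, a lipid transporter of late endosomes, averaged 30.2 ± 0.628 CPM at 7 days, against 15.9 ± 1.39 CPM in control (SD, n = 3 each), and Abca4, known from photoreceptors, 1.13 ± 0.103 CPM, against 0.586 ± 0.213 CPM; both were called higher at 7 days and neither at 2 days, and the 7-day call of Abca4 was lost with total counts as the scale (log2 fold change 0.50, edgeR adjusted p = 0.11).

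Abca12 (ENSMUSG00000050296, chr1:71242276-71414910, minus strand), which loads glucosylceramides into skin lamellar granules, differed in timing from the others. It had 5.29, 6.72 and 5.50 CPM in control, 12.0, 14.6 and 11.5 CPM after 2 days and 11.6, 13.7 and 13.0 CPM at 7 days. The libraries of the 2 later groups lay together, well above control: the log2 fold change was 1.12 ± 0.13 at 2 days (edgeR adjusted p = 1e-05), 1.13 ± 0.13 at 7 days (edgeR adjusted p = 8.1e-07) and 0.01 ± 0.12 between them (edgeR adjusted p = 0.94). With total counts as the scale the last difference was -0.40 and called lower (edgeR adjusted p = 0.011), so the plateau depends on the scaling.

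Abca1 and Abcg1, the cholesterol exporters that LXR receptors are best known to induce, were near the floor of the measurement. Abca1 had 1, 1 and 2 counts over the 3 libraries of control, 2 days and 7 days, and Abcg1 had 9, 10 and 4. A count of 3 over a group corresponds to 0.0337 CPM in control, 0.0319 CPM after 2 days and 0.0390 CPM at 7 days, so no change of Abca1 was detectable at this depth. The Abca1 promoter shown above was the only one of 45 ABC promoter windows with a match to the LXR motif (GGTNANNNNNGGTNA), which 0.719% of all 32817 windows hold.

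The regulators and partners of sterol export, as listed with earlier results known, were measured beside these genes. Of 11 LXR and sterol regulators, 8 were higher and 3 lower at 7 days. As background for this and the later lists, 40.5% of all genes tested were higher at 7 days and 41.8% lower. Nr1h3, which encodes LXR alpha, averaged 20.2 CPM at 7 days, against 2.31 CPM in control, and a dimer partner, Rxra, 61.5 CPM, against 5.27 CPM. Insig1, which holds back sterol synthesis, averaged 648 CPM at 7 days, against 131 CPM in control. None of the 3 lower genes, which include another dimer partner of LXR alpha, was among those with the smallest p. Of 13 genes that take up, esterify and package cholesterol and fat in enterocytes, 11 were higher and 2 lower at 7 days. Npc1l1, the apical cholesterol importer that works against Abcg5 and Abcg8, averaged 562 CPM at 7 days and 5.39 CPM after 2 days, against 0.798 CPM in control. Of 7 bile acid handling partners 5 were tested, and 5 were higher at 7 days, among them Slc51a, a subunit of the basolateral bile acid exporter, at 27.0 CPM, against 0.122 CPM in control.

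**Figure D3:**
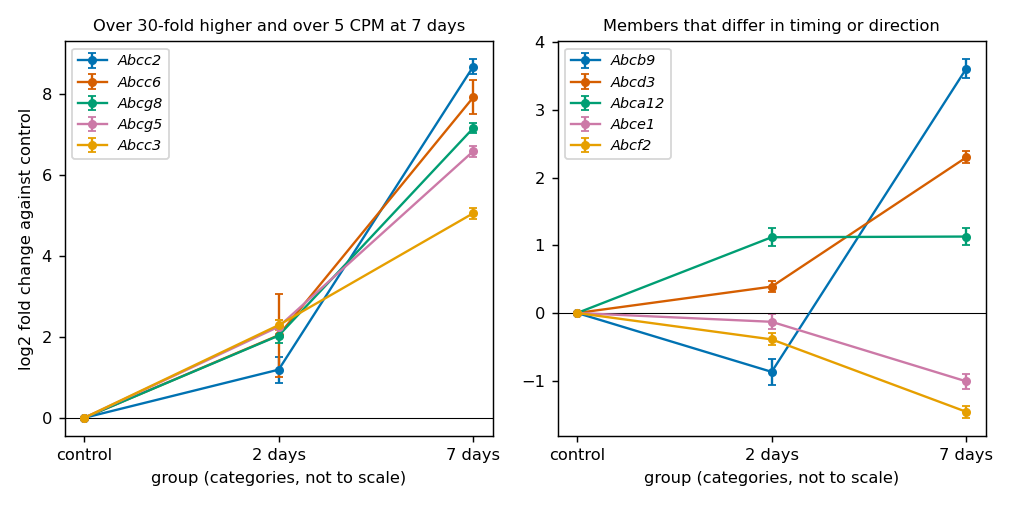
log2 fold change against control (y axis) at control, 2 days and 7 days (x axis, categories not to scale), with points as edgeR estimates and bars as SE. Left, 5 genes over 30-fold higher and over 5 CPM at 7 days, which reach 5.05 to 8.67. Right, genes that differ in timing or direction, with Abca12 level after 2 days, Abcb9 below 0 at 2 days and above it at 7 days, and Abce1 and Abcf2 below 0 at 7 days. Abcd3, also in the right panel, is above 0 at both times and is set apart in neither respect.

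Genes of mitochondria, lysosome and peroxisome had 8 of 9 members tested, and at 7 days 7 were higher and 1 was not called, with a median log2 fold change of 0.92. That was 87.5% called, all higher, against 82.3% called and 40.5% higher of all genes tested. At 2 days 1 was higher, 2 were lower and 5 were not called, with a median of -0.06. Of all genes tested, 13.1% were higher and 10.6% lower at 2 days. Among those described, Abcd3 and Abcb9 held the large changes and the mitochondrial genes the small ones.

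Abcd3 (ENSMUSG00000028127, chr3:121758774-121815302, minus strand), a major protein of the peroxisomal membrane, imports branched-chain acyl groups and bile acid precursors. It had 437, 431 and 472 CPM at 7 days and 115, 123 and 118 CPM after 2 days, against 81.9, 91.2 and 98.6 CPM in control. All groups were separate, with a log2 fold change of 2.30 ± 0.09 at 7 days (edgeR adjusted p = 1.9e-12) and 0.39 ± 0.08 at 2 days (edgeR adjusted p = 0.0029). Its promoter window held the single match to the HNF4A motif (CAAAGTCCA) among the 45 ABC windows, 13 bases after the start, a motif found in 0.475% of all windows.

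Abcb9 (ENSMUSG00000029408, chr5:124061530-124095798, minus strand), a lysosomal peptide transporter related to Tap1 and Tap2, moved in opposite directions at the 2 times. It had 2.55, 2.50 and 2.31 CPM in control, 1.35, 1.14 and 1.5 CPM after 2 days and 35.7, 28.4 and 25.9 CPM at 7 days. No library of any group overlapped with another group. The log2 fold change was -0.87 ± 0.19 at 2 days (edgeR adjusted p = 0.0033), 3.61 ± 0.14 at 7 days (edgeR adjusted p = 3.3e-12) and 4.48 ± 0.15 between 7 days and 2 days (edgeR adjusted p = 1e-12). Tap1 and Tap2, the peptide pumps of the endoplasmic reticulum, averaged 9.46 and 4.33 CPM at 7 days, against 0.601 and 0.881 CPM in control, and neither was called at 2 days.

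Abcd4 (ENSMUSG00000021240, chr12:84601464-84617413, minus strand), which works in lysosomal release of vitamin B12, had 15.1, 17.5 and 13.7 CPM at 7 days, against 7.42, 7.26 and 6.68 CPM in control. All 7-day libraries lay above control, a log2 fold change of 1.12 ± 0.11 (edgeR adjusted p = 1.9e-07), and no call was made at 2 days (edgeR adjusted p = 0.12). Abcb10, a protein of the inner mitochondrial membrane that supports haem synthesis, averaged 57.7 ± 2.06 CPM at 7 days, against 45.0 ± 1.73 CPM in control, and Abcb8, part of a mitochondrial potassium channel complex, 78.7 ± 7.66 CPM, against 64.9 ± 5.63 CPM (SD, n = 3 each); both were called higher, and with total counts as the scale both differences were negative and uncalled. Upper-quartile factors also ended the call of Abcb8 (edgeR adjusted p = 0.067). Abcb6, a proposed porphyrin transporter, averaged 2.22 ± 0.623 CPM at 7 days, against 1.34 ± 0.314 CPM in control, and was called higher (edgeR adjusted p = 0.011) although its libraries overlapped, and with total counts as the scale the call was lost (log2 fold change 0.31, edgeR adjusted p = 0.25); 55.2% of its exon bases are shared with the transcript Gm29253 on the same strand.

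Partners of these organelles were counted beside them. Of 12 genes of peroxisomal import and beta-oxidation 10 were higher and none lower at 7 days, with Ehhadh, an enzyme of the peroxisomal beta-oxidation cycle, at 127 CPM, against 8.76 CPM in control. Of 16 genes of haem and iron-sulphur assembly, 5 were higher and 5 lower at 7 days, against 40.5% and 41.8% of all genes tested. Alas1, the first enzyme of haem synthesis, stood at 228 CPM at 7 days, against 92.0 CPM in control.

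ABC proteins without membrane domains were the one group that was mostly lower. All 4 were tested, and at 7 days 3 were lower and 1 was higher, with a median log2 fold change of -0.80. Over all genes tested, 41.8% were lower and 40.5% higher, and 4 genes are few to set against these shares. At 2 days 1 was lower and 3 were not called, and 10.6% of all genes tested were lower. As background, Abce1 splits ribosomes into subunits after termination, and Abcf proteins take part in translation initiation and in signalling through the kinase Gcn2, a role for Abcf2 that is less settled.

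Abcf2 (ENSMUSG00000028953, chr5:24565345-24577467, minus strand) had 307, 295 and 261 CPM in control, 228, 224 and 206 CPM after 2 days and 116, 103 and 94.9 CPM at 7 days. It stepped down without overlap and was the only ABC gene called lower in all 3 comparisons, with a log2 fold change of -0.39 ± 0.09 at 2 days (edgeR adjusted p = 0.0052) and -1.46 ± 0.09 at 7 days (edgeR adjusted p = 8.1e-10). Abce1 (ENSMUSG00000058355, chr8:79683462-79711740, minus strand) had 104, 112 and 140 CPM at 7 days and 222, 218 and 215 CPM after 2 days, against 206, 238 and 272 CPM in control. The 2-day libraries lay within the control range (edgeR adjusted p = 0.45), and every 7-day library lay below it, a log2 fold change of -1.01 ± 0.11 (edgeR adjusted p = 7.6e-07).

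Abcf1 averaged 181 ± 13.3 CPM at 7 days, against 274 ± 24.2 CPM in control (SD, n = 3 each), a log2 fold change of -0.60 ± 0.09 (edgeR adjusted p = 1.5e-05). Abcf3 went the other way with TMM factors, at 83.3 ± 6.03 CPM at 7 days, against 68.6 ± 7.61 CPM in control (log2 fold change 0.28 ± 0.09, edgeR adjusted p = 0.0097), but leaving out control replicate 3 ended the call (edgeR adjusted p = 0.053), as did upper-quartile factors (edgeR adjusted p = 0.069), and the difference was -0.12 with total counts as the scale. Of 11 translation partners, 10 were lower and none higher at 7 days, against 41.8% and 40.5% of all genes tested. Gspt1, a termination factor, stood at 139 CPM at 7 days, against 307 CPM in control, and Eif2ak4, which encodes Gcn2, at 7.88 CPM, against 19.3 CPM.

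Abcc8 and Abcc9 encode the sulphonylurea receptors, which gate K-ATP channels and transport nothing themselves. Abcc8 averaged 1.19 ± 0.101 CPM at 7 days and 0.309 ± 0.0556 CPM after 2 days, against 0.233 ± 0.0793 CPM in control (SD, n = 3 each), and was called higher at 7 days (edgeR adjusted p = 1.8e-06) but not at 2 days (edgeR adjusted p = 0.54). Abcc9 had 1, 1 and 0 counts over control, 2 days and 7 days, and the genes of the channel pores summed to 0.0433 to 0.11 CPM at 7 days, against 0 to 0.0287 CPM in control, and none was tested.

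In the Abca5 and Abca14 gene clusters, whose members have few settled roles, 4 of 9 genes were tested. Of these 3 were higher at 7 days, against 40.5% of all genes tested. Abca14 averaged 1.26 ± 0.265 CPM at 7 days, against 0.0738 ± 0.064 CPM in control (98 against 7 counts), Abca5 3.81 ± 0.583 CPM, against 2.03 ± 0.376 CPM, and Abca17 2.81 ± 0.351 CPM, against 1.38 ± 0.122 CPM (SD, n = 3 each). Abca8b, at 0.273 ± 0.148 CPM at 7 days, against 0.333 ± 0.118 CPM in control, was not called in any comparison by edgeR.

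The genes that were not tested had few counts over the 3 libraries of each group. Given for control, 2 days and 7 days, Abcb5 had 17, 23 and 9 counts, Abca6 9, 12 and 10, and Abca13 4, 9 and 25. Abcg4 had 4, 6 and 1, Abcc12 1, 4 and 6, and Abcd2, a further peroxisomal importer, 1, 1 and 0. Abcg3, Abca15, Abca16, Abca8a and Abca9 had at most 2 counts in any group. None of the 50 genes was without a count in the whole table, and 8 had 10 or fewer.

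Position in the genome was a further property that the choice by name had not used. Each ABC gene was paired only with the next ABC gene along its chromosome, and 13 such pairs lay within 200 kb of each other. Of these, 7 had both genes tested, and in 5 of the 7 both were called higher at 7 days. Since 77.8% of the tested ABC genes were higher taken one by one, that count is no result about position. Abca17 and Abca3 start 0.881 kb apart and read away from each other, with log2 fold changes of 1.02 and 1.19 at 7 days. Abcc6 and Abcc8 lie 74.2 kb apart on the same strand, with 7.91 (from 2 counts in control) and 2.30. The pair in opposite directions was Abcb8 and Abcf2, 155 kb apart and read towards each other, with 0.28 and -1.46.

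In the RefSeq promoter windows, 250 bases before to 50 after each start and available for 38 of the 50 genes, 5 motifs were searched on both strands. The TCF/LEF motif (CTTTGAT) was in 0 of 45 ABC windows and in 3.73% of all windows. The E-box (CACGTG) was in 6 ABC windows, 13.3% of them, and in 7.15% of all. The antioxidant response element (TGACNNNGC) was in 7 ABC windows, 15.6% of them, and in 12.4% of all. Abcc4 and Abcc10 were each counted among these 7 at alternative starts. The 7 also included Abcc2, where TGACATAGC lies 98 bases before the RefSeq start. That is inside the GENCODE first exon, which begins 116 bases upstream of the RefSeq start. These are matches of letters, and no binding was measured.

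The make-up of the family's RNA, per kilobase of exon, turned over between control and 7 days. Summed over the 50 genes it was 579 ± 14.5 CPM per kb at 7 days and 343 ± 16.3 at 2 days, against 361 ± 12.1 in control (SD, n = 3 each), and as a share of all counts the family held 0.273% at 7 days and 0.198% at 2 days, against 0.196% in control. Abce1 and the Abcf genes together made up 21.6% of the summed level at 7 days and 56.7% at 2 days, against 64.6% in control. Abcc3 made up 18.7% at 7 days and 4.64% at 2 days, against 0.902% in control, and Abcg5 with Abcg8 7.54% at 7 days and 0.512% at 2 days, against 0.106% in control. By level per kilobase, control was led by Abcf2 at 112 ± 9.45, Abcf1 at 62.2 ± 5.48 and Abce1 at 39.7 ± 5.43, and 7 days by Abcc3 at 108 ± 13.1, ahead of Abcd3 at 67.8 ± 3.36 and Abcb1a at 67.8 ± 6.63, which did not differ beyond their spread. Abcf1 and Abcf2 followed at 41.0 ± 3.02 and 40.6 ± 4.05, again within their spread. At 2 days the order was still led by Abcf2 at 85.4 ± 4.59, with Abcb1a next after Abcf1 and Abce1 at 20.3 ± 0.635.

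**Figure D4:**
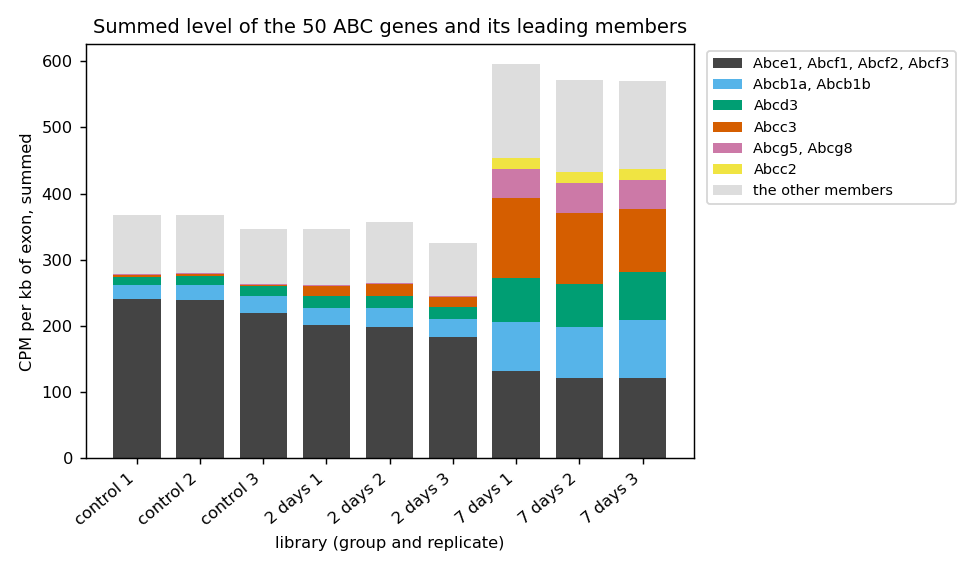
Summed level of the 50 ABC genes in CPM per kb of exon (y axis) in each of the 9 libraries (x axis), divided into the leading genes and the rest. The 7-day bars reach 570 to 596, against 347 to 368 in control, while the block of Abce1 and the Abcf genes is smaller at 7 days than in control and the Abcc3, Abcd3 and Abcb1a with Abcb1b blocks are larger.

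Outside the family, the 5 protein-coding genes closest to each of 5 pumps were listed by Euclidean distance between log2 CPM profiles over the 9 libraries, each centred on its mean, among 12118 genes. Predicted genes (Gm and Rik symbols) and genes not reported here were left out, so a closer gene may be missing from a list. For Abcg5 they were Cideb at 0.641, then Fcgbp, Trim31, Cidec and Tm6sf2, and for Abcg8 Selenop at 0.481, then Trim31, Ms4a10, Tm6sf2 and Fcgbp. For Abcc2 they were Slc2a2 at 0.773, then Ugt2b5, Slc3a1, Cyp2d9 and Sult1b1. For Abcb1a they were Crot at 0.246, then Stk17b, the family's own Abcd3, Maoa and Herc3, and for Abcb1b Mfsd4a at 0.143, then Plod2, Pcyox1, Cadm1 and Ndfip2. Trim31, Tm6sf2 and Fcgbp stood in the lists of both Abcg5 and Abcg8, and the lists of Abcb1a and Abcb1b had no gene in common.

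The regulators and suppliers of drug export, from lists made with earlier results known, were counted last. Of 11 xenobiotic receptors and regulators 10 were tested, and all 10 were higher at 7 days. Over all genes tested, 40.5% were higher and 41.8% lower. Nr1i2, which encodes the xenobiotic receptor PXR, averaged 34.1 CPM at 7 days and 2.06 CPM after 2 days, against 0.515 CPM in control, and Hnf4a 1450 CPM at 7 days and 490 CPM after 2 days, against 242 CPM in control. Of 12 genes of glutathione supply and conjugation 10 were higher and 1 lower at 7 days, with Gsta1, a transferase that makes conjugates for Abcc2 and its relatives, at 8170 CPM at 7 days and 890 CPM after 2 days, against 182 CPM in control. Of 7 peptide loading partners 4 were higher and none lower at 7 days. Cftr, the chloride channel of the superfamily, averaged 51.3 ± 6.17 CPM at 7 days, against 44.6 CPM in control, and was not called (edgeR adjusted p = 0.096). Against 2 days, at 38.4 CPM, it was called higher at 7 days (log2 fold change 0.42 ± 0.11, edgeR adjusted p = 0.0025). Scaling by total counts alone moved the median of all genes by -0.42 in that comparison. The summed enterocyte markers given at the start were also higher at 7 days. At 2 days their sum, 443 to 512 CPM, overlapped control, 417 to 510 CPM, although 4 of the 12 were called higher. Their part in the changes of the ABC genes was not tested.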

How the data were processed

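RNA was measured in 9 libraries, 3 per group, with groups taken from the sample titles. The deposited values are unnormalised read counts per gene for all libraries, in 1 table made by the authors; per the submitters' processing notes STAR 2.7.0e, featureCounts and DESeq2 were used with builds mm10 and GRCm38. The sources used here give neither the annotation release nor the strand setting; per the labels' protocols the library kit was NEBNext Ultra II, an unstranded form, so reads of overlapping genes cannot be told apart. Of 21253 IDs, 21236 were found in GENCODE M21 (GRCm38), which gave symbols, coordinates and exon lengths; coordinates in the text are of that build.

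The 12535 genes kept by filterByExpr were scaled with TMM factors (1.073 to 1.125 in control, 1.093 to 1.117 at 2 days, 0.785 to 0.8735 at 7 days). The test was edgeR 4.0.16 (R 4.3.3), glmQLFit with glmQLFTest, over all 9 libraries (common dispersion 0.00723), two-sided, with Benjamini-Hochberg adjustment over all genes and a threshold of 0.05. SE is the absolute log2 fold change over the square root of F. CPM are counts per 1000000 of the TMM-scaled library size, and levels between genes are per kilobase of union exon. Floors (3 counts over a group) and intervals cover counting error only. No 2 replicates agreed within sampling noise (chi-square per degree of freedom 4.24 to 38.3). The code was tested on simulated counts.

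The members, roles, companion lists and motifs were chosen with earlier results of these data known. Some members and partner genes enter the counts but are not reported here by name. The other tested members were named, and full values were given for the 17 of them with an adjusted p under 0.05 against control, at least a 2-fold change and at least 5 CPM in the higher group, and of companion lists up to 4 genes with the smallest p. Abcb1b, Abcb11 and Abcc1 were given in full after their values had been seen. Alternatives changed the scaling (size factors as in DESeq2, upper-quartile factors, or library size alone), the filter (none, or a mean of 5 CPM or more), the tool (limma 3.58.1 with voom, or the Wald test of DESeq2 1.42.0) and the design (only the 2 groups compared, the replicate block, or each library left out).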

Additional observations from a re-analysis of the deposited data

Results flagged for a closer look

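Abcb9 was called lower at 2 days and higher at 7 days, both against the same control libraries, and the comparison of 7 days with 2 days tests the difference between the times directly. It gave a log2 fold change of 4.48 for Abcb9 (edgeR adjusted p = 1e-12). All 3 libraries at 7 days lay above, and all 3 at 2 days below, the 3 control libraries.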

How the results depend on the processing

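The counts of called ABC genes and of all called genes stayed within 1.5 times the reported values in each comparison under every alternative run. Leaving out each library gave 12 to 14 called ABC genes at 2 days against control, 31 to 32 at 7 days against control and 30 to 32 at 7 days against 2 days, and 1993 to 3298 of all genes at 2 days, where the lower calls numbered 809 without control replicate 2, against 1333. Among the reported values called in either fit, signs turned only with library size alone, which moved the median of all genes by -0.40 at 7 days against control and by -0.42 at 7 days against 2 days, while upper-quartile factors moved it by -0.10 and -0.12. The log2 fold changes were then, at 7 days against control, -0.13 for Abcb8, -0.04 for Abcb10, -0.26 for Abcc4 and -0.12 for Abcf3, and at 7 days against 2 days -0.40 for Abca12, -0.043 for Abcb8, -0.15 for Abcc4, -0.39 for Abcc5 and -0.014 for Abcf3. At 7 days against 2 days that scaling called 21 ABC genes higher and 7 lower, and 3281 genes higher and 7041 lower of all genes, against 4912 and 5006. The cause was not tested, beyond the shift itself. Abcb6 at 7 days against 2 days was lost in 10 settings. Replicate numbers were not taken to pair the libraries, since not every same-numbered pair deviated together: deviations correlated between -0.13 and 0.48 over the 9 pairs, with 5 of the 9 over 0.1. As a hint from the data and not the design, 6 of 9 libraries correlated best with their own number. With the number as a replicate block, 15 ABC genes were called at 2 days against control, 32 at 7 days against control and 32 at 7 days against 2 days, and 4039, 10667 and 10308 of all genes; the ABC gene gained was Abcf1 at 2 days (edgeR adjusted p = 0.028). Genes with few counts, such as Abca1, are limited by depth.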
